A study of Mus musculus with 9 samples.

Results

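Integrins and the proteins that tie them to actin were followed as 41 genes of the 23420 in the deposited table. The set took every gene named Itga or Itgb followed by a number or letter, which gave 27 integrin subunits, and 14 named adaptors. The adaptors were the talins Tln1 and Tln2, the kindlins Fermt1, Fermt2 and Fermt3, Ilk, the parvins Parva, Parvb and Parvg, Vcl, Zyx, Pxn, and the kinases Ptk2 and Ptk2b. The rule used names and no measured value, though the set was proposed with earlier results of these data known.

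Integrins are receptors made of 1 alpha and 1 beta subunit that bind matrix proteins or counter-receptors on other cells. Talins and kindlins bind the tails of beta subunits and switch the receptor to its binding state, and the complex of ILK, PINCH and parvin, together with vinculin, zyxin and paxillin, links the receptor to actin at focal adhesions. Beta1 integrins hold fibroblasts to collagen and fibronectin, whereas beta2 integrins are restricted to leukocytes and serve their adhesion and phagocytosis. In the joint, synovial fibroblasts and macrophages lie next to each other in the lining.

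The data came from 3 libraries each of fibroblasts from arthritic synovium (ADSF, arthritis tissue-derived), fibroblasts from normal synovium (NDSF) and macrophages from arthritic synovium (ADSM), all from C57BL/6 mice and cultured to passage 1 in serum-containing medium. ADSF and ADSM came from swollen ankles of mice with collagen antibody-induced arthritis (CAIA), in which antibodies against type II collagen are injected and then lipopolysaccharide, and NDSF came from ankles of normal mice. The sources used here do not give the age of the mice. The fibroblasts were the cells that attached to a dish coated with collagen, itself an integrin ligand, and the macrophages were cells that had not attached there, grown for longer on an uncoated dish and freed of stromal cells with trypsin. Macrophages from normal ankles were not analysed here, so in NDSF against ADSM the cell type and the arthritis cannot be told apart. The paper names a TruSeq Stranded kit for ADSF and ADSM and a NEBNext Directional kit for NDSF, while the labels name the TruSeq kit for all, so that kit and state of the ankle cannot be told apart either.

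The libraries held 2580998 to 3220692 reads in ADSF, 3142495 to 3351184 in NDSF and 2380483 to 3073890 in ADSM, and the 41 genes took 0.539 to 0.769% of them. Values are reads scaled by the TMM method (trimmed mean of M values), and 1 read was worth 0.854 to 1.24. Summed macrophage markers lay at 811 to 1542 in ADSF, 841 to 2009 in NDSF and 37432 to 40561 in ADSM, and summed fibroblast markers at 86811 to 97420 in ADSF, 105599 to 165110 in NDSF and 61.5 to 127 in ADSM. Markers of T, B, epithelial and dendritic cells and of neutrophils summed to at most 16.9 in any library. NDSF library 3 stood apart. The chi-square of its reads against NDSF libraries 1 and 2, divided by the degrees of freedom, was 21.0 and 16.4, against 1.71 between NDSF libraries 1 and 2. Female mice are given in the paper's methods. Summed values of 4 Y-linked genes came to 0 in ADSF and NDSF and to 337 to 469 in ADSM. The X-linked gene Xist had the reverse pattern, with 2721 to 2891 in ADSF, 1872 to 2477 in NDSF and 0 to 3.42 in ADSM. The ADSM values are at odds with the stated sex, so sex or source and cell type cannot be told apart in comparisons with ADSM. The paper describes cells from separate ankles, but the labels do not say which ankle or animal gave which library, and the p-values below measure the spread between these libraries.

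Of the 41 genes, 32 passed a filter that asked for 10 or more in 3 or more libraries and were tested with limma in 1 model of all 9 libraries, with p-values adjusted over all 11889 tested genes. A gene was called at an adjusted p under 0.05, and fold changes are differences in log2(value + 1), which understates the change of low genes. Between ADSF and ADSM, 19 genes were higher in ADSF and 10 lower, against a background of 71.1% of all tested genes called (41.0% higher and 30.1% lower). The same count in NDSF against ADSM was 20 higher and 11 lower, with a background of 75.4% (43.3% higher and 32.0% lower). ADSF differed from NDSF in 8 of the 32, 5 higher and 3 lower, which is 25.0% of them against a background of 21.2%. The background in each direction was 9.88% higher and 11.3% lower. Median log2 fold changes of the 32 genes were 2.70, 2.03 and 0.22 in these comparisons, against 0.14, 0.18 and -0.01 over all tested genes. The libraries did not overlap between ADSF and ADSM in 30 of the 32 genes, against a background of 76.7%, between NDSF and ADSM in 31, against 77.6%, and between ADSF and NDSF in 14, against 38.1%. The comparisons share libraries and are not independent of each other. In cultured bulk samples, fewer cells of a type and less RNA per cell cannot be told apart.

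**Figure D1:**
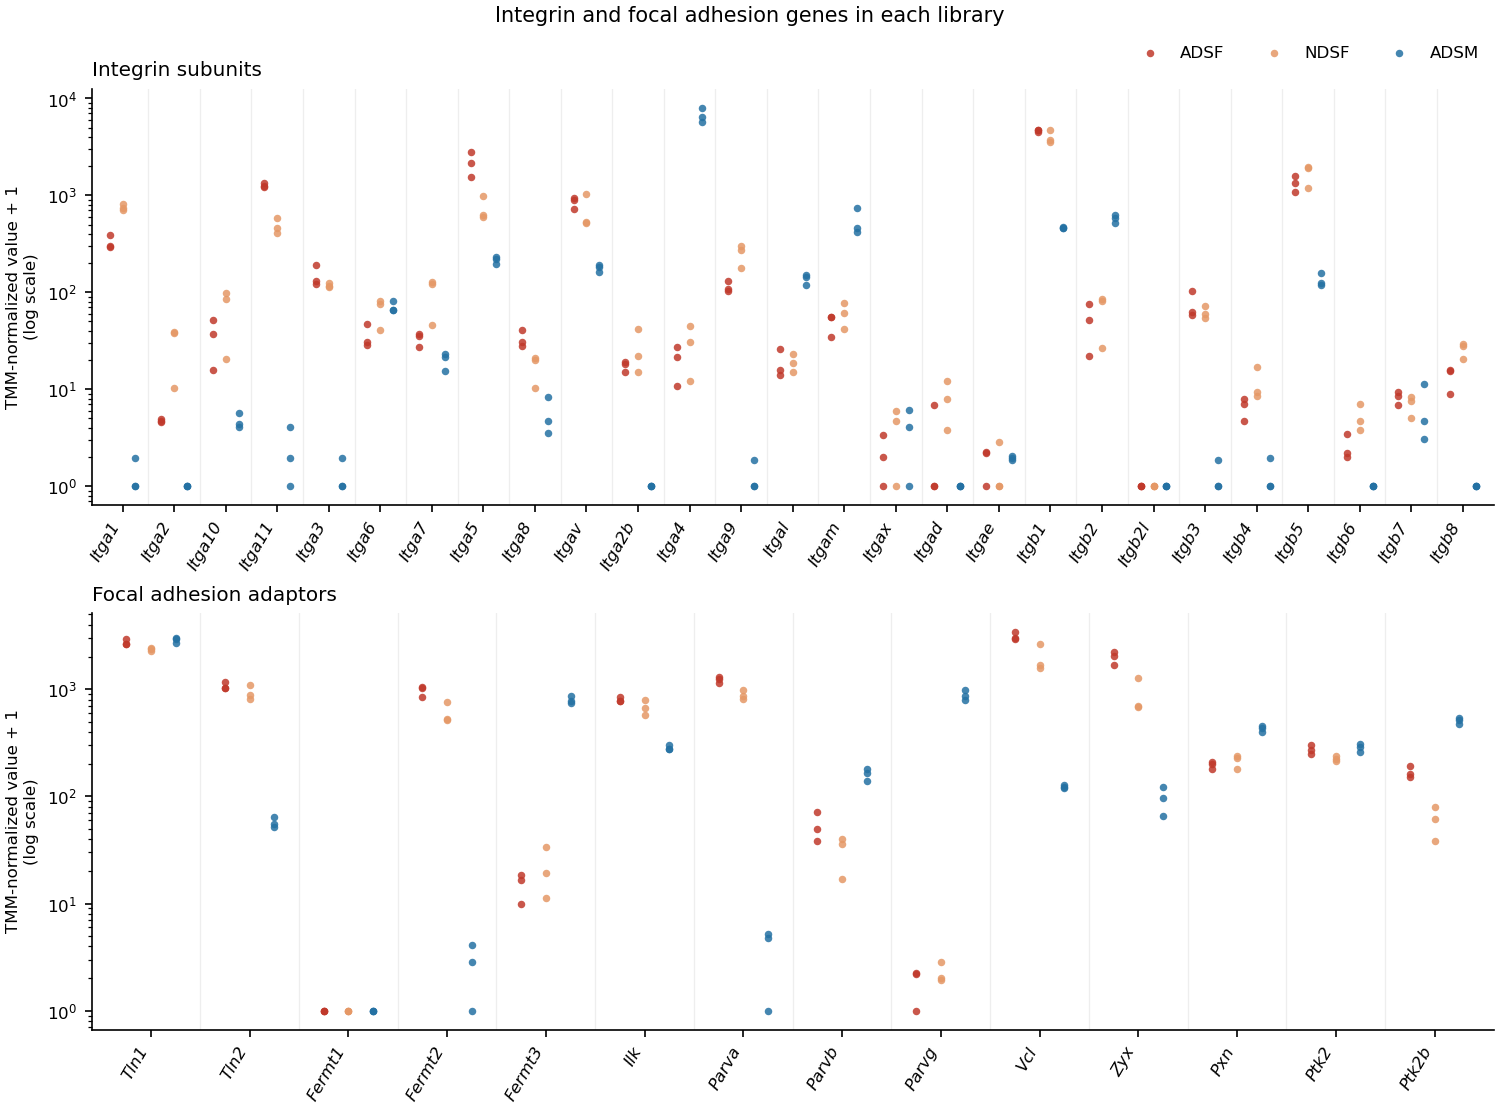
TMM-normalized value plus 1 on a log axis for the 41 genes in each of the 9 libraries, with ADSF, NDSF and ADSM side by side for each gene and 1 point per library. The leukocyte genes Itga4, Itgam, Itgb2, Fermt3 and Parvg are high in ADSM, Itga1, Itga11, Fermt2 and Parva are high in both fibroblast groups, and Tln1 and Ptk2 sit at similar levels in all 9 libraries.

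The collagen receptors were fibroblast genes, and the fibroblast groups differed in which of them was higher. Itga11 (chromosome 9, 62677855 to 62783979 in mm10) codes for a receptor of fibrillar collagen on fibroblasts. Its TMM-normalized values were 1329, 1217 and 1263 in ADSF, 460.2, 584 and 407 in NDSF, and 0, 3.11 and 0.935 in ADSM. Only 4 reads fell on it in the 3 ADSM libraries together, and the ADSF and NDSF libraries did not overlap. The log2 fold change was 9.31 (adjusted p = 3.85e-09, standard error 0.39) in ADSF against ADSM and 7.91 (adjusted p = 1.34e-08, standard error 0.39) in NDSF against ADSM.

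Itga1 (chromosome 13, 114958081 to 115101964), whose product prefers the network collagen of basement membranes, had values of 388, 296 and 291 in ADSF, 707, 742 and 814 in NDSF, and 0, 0 and 0.935 in ADSM. All NDSF libraries lay above all ADSF libraries, the reverse of the order for Itga11. With 1 read in ADSM, the ratio of levels was 1056 for ADSF over ADSM (95% counting interval 189 to 41754) and 2416 for NDSF over ADSM (433 to 95478). Per length of exon, the ratio of Itga11 to Itga1 was 4.15, 4.98 and 5.26 in ADSF against 0.789, 0.954 and 0.607 in NDSF, so the collagen receptor with the higher level was Itga11 in each ADSF library and Itga1 in each NDSF library.

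Itga10, a collagen receptor known from cartilage, was lower and more variable, with 50.6, 14.9 and 36.1 in ADSF, 83.7, 96.9 and 19.7 in NDSF, and 3.42, 3.11 and 4.67 in ADSM. Both fibroblast groups were above ADSM, with log2 fold changes of 2.74 (adjusted p = 0.00145, standard error 0.58) and 3.57 (adjusted p = 1.97e-04, standard error 0.58), and ADSF and NDSF overlapped. Itga2, the collagen receptor of platelets and epithelia, did not pass the filter. It had 3.97, 3.73 and 3.61 in ADSF, 36.8, 38.0 and 9.39 in NDSF, and 0, 0 and 0 in ADSM, which is at least 4.04-fold higher in ADSF and at least 29.8-fold higher in NDSF than in ADSM, counted against a floor of 3 reads over the group.

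Among laminin receptors, Itga3 was a fibroblast gene, Itga6 was shared and Itga7 was highest in NDSF. Itga3 had 189.6, 121 and 131 in ADSF, 111, 114 and 124 in NDSF, and 0, 0 and 0.935 in ADSM, a ratio of 481 for ADSF over ADSM (85.9 to 19057) on 1 ADSM read. Itga6 had 29.8, 27.4 and 45.7 in ADSF, 75.5, 80.9 and 39.4 in NDSF, and 64.1, 65.4 and 79.4 in ADSM and was lower in ADSF than in ADSM, with a log2 fold change of -1.03 (adjusted p = 0.00779, standard error 0.29), while the value for NDSF against ADSM was -0.15 (adjusted p = 0.640, standard error 0.29). NDSF library 3 was the lowest NDSF library for Itga6, and without it the NDSF against ADSM value was 0.17.

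Itga7 (chromosome 10, 128933813 to 128958284) codes for the laminin receptor of skeletal muscle fibres. Values were 34.7, 36.1 and 26.4 in ADSF, 127, 121 and 45.1 in NDSF, and 22.2, 14.5 and 20.6 in ADSM, with NDSF libraries 1 and 2 well above NDSF library 3 and above every other library. NDSF exceeded ADSM by a log2 fold change of 2.18 (adjusted p = 2.41e-04, standard error 0.36) and ADSF was below NDSF, with a log2 fold change of -1.43 (adjusted p = 0.0207, standard error 0.36). Skeletal muscle markers moved with it. Their summed level was 53.5 to 102 in ADSF, 774 to 2015 in NDSF and 0 to 0.854 in ADSM, and all 5 tested of the 7 markers were lower in ADSF than in NDSF. Pax7 had no read in any group, and the part of muscle cells in the Itga7 difference was not tested. The ADSF against ADSM value, 0.74 (adjusted p = 0.0888, standard error 0.36), missed the threshold, but passed with the libraries of these groups alone (adjusted p = 0.0220), in the FPKM table (0.00874) and without NDSF library 3 (0.00937).

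The receptors for the RGD motif of fibronectin and vitronectin were all higher in fibroblasts. Itga5 (chromosome 15, 103344286 to 103366748), the alpha chain of the classical fibronectin receptor, had 1533, 2813 and 2148 in ADSF, 597, 622 and 979 in NDSF, and 219, 232 and 195 in ADSM. The 3 groups did not overlap, with ADSF highest and ADSM lowest. Its log2 fold change was 3.28 (adjusted p = 2.31e-07, standard error 0.23) in ADSF against ADSM, 1.73 (adjusted p = 4.03e-05, standard error 0.23) in NDSF against ADSM and 1.56 (adjusted p = 0.00199, standard error 0.23) in ADSF against NDSF.

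Itgav, the alpha chain shared by vitronectin receptors and by receptors that release active TGF-beta, had 716, 905 and 930.4 in ADSF, 525, 519 and 1034 in NDSF, and 182, 161 and 189.7 in ADSM. It was higher than in ADSM by a log2 fold change of 2.25 (adjusted p = 6.45e-06, standard error 0.23) in ADSF and 1.88 (adjusted p = 2.42e-05, standard error 0.23) in NDSF, while ADSF and NDSF overlapped with the highest value in NDSF library 3. Per length, Itga5 stood at 3.46, 5.02 and 3.73 times Itgav in ADSF, 1.84, 1.94 and 1.53 times in NDSF, and 1.94, 2.33 and 1.66 times in ADSM.

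Itga8, a nephronectin receptor of mesenchymal and smooth muscle cells, was a low gene with 26.8, 39.8 and 30.1 in ADSF, 20.2, 19.0 and 9.39 in NDSF, and 2.56, 7.27 and 3.74 in ADSM, higher than in ADSM by a log2 fold change of 2.66 (adjusted p = 8.57e-05, standard error 0.38) in ADSF and 1.66 (adjusted p = 0.00223, standard error 0.38) in NDSF. Itga2b, which codes for the fibrinogen receptor chain of platelets, had 13.9, 17.4 and 18.03 in ADSF, 40.5, 21.0 and 14.1 in NDSF, and 0, 0 and 0 in ADSM. No ADSM library held a read of it, so ADSF was at least 17.4-fold and NDSF at least 27.1-fold higher (adjusted p = 1.74e-06 and 6.71e-07). The 7 platelet and megakaryocyte markers, Itga2b among them, summed to 59.6 to 188 in ADSF, 38.0 to 53.4 in NDSF and 3.11 to 8.41 in ADSM. Ppbp, a platelet chemokine, made up most of the ADSF sum, with 39.7, 121 and 159 in ADSF, 0, 0 and 3.75 in NDSF, and 0, 0 and 0 in ADSM, and was higher in ADSF than in NDSF (log2 fold change 5.78, adjusted p = 4.46e-04). Gp1bb and Pf4 had reads in all fibroblast libraries, at most 17.8 and 6.57, and Pf4 also had 0.854, 0 and 3.74 in ADSM. Gp1ba had its highest mean in ADSM, with 0.993, 4.98 and 1.20 in ADSF, 2.76, 2.00 and 0 in NDSF, and 5.13, 3.11 and 4.67 in ADSM. Gp9 and Gp6 had no read in any library, and the part of such cells in the Itga2b values was not tested.

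Itga4 and Itga9, closely related chains that bind VCAM1 and an alternative part of fibronectin, were split between the cell types. Itga4 (chromosome 2, 79255426 to 79333114) had 9.93, 26.1 and 20.4 in ADSF, 44.2, 29.97 and 11.3 in NDSF, and 5729.5, 7997 and 6385 in ADSM. The lowest ADSM library was far above the highest fibroblast library. The log2 fold change was -8.49 (adjusted p = 2.11e-08, standard error 0.44) in ADSF and -8.01 (adjusted p = 3.18e-08, standard error 0.44) in NDSF. Per length of exon, Itga4 was the highest of the 41 genes in ADSM at 682 ± 119 per kb (SD, n = 3). Itga9 had the opposite pattern with 129, 102 and 108 in ADSF, 269.6, 298 and 178 in NDSF, and 0.854, 0 and 0 in ADSM, a ratio of 366 for ADSF over ADSM (65.2 to 14508) and 794 for NDSF over ADSM (142 to 31384). NDSF libraries did not overlap ADSF libraries, which were lower, with a log2 fold change of -1.10 (adjusted p = 0.0249, standard error 0.29).

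Of the leukocyte alpha chains, Itgam and Itgal were higher in ADSM, but far less completely than Itga4. Itgam (chromosome 7, 128062640 to 128118491), which codes for CD11b of complement receptor 3, had 33.7, 54.8 and 55.3 in ADSF, 60.7, 75.9 and 40.4 in NDSF, and 423, 740.0 and 461 in ADSM. Itgal, which codes for CD11a of LFA-1, had 12.9, 14.9 and 25.2 in ADSF, 17.5, 22.0 and 14.1 in NDSF, and 150.3, 142 and 117 in ADSM. Neither gene overlapped between ADSM and the fibroblast groups. Log2 fold changes were -3.46 (adjusted p = 9.48e-07, standard error 0.29) and -3.18 (adjusted p = 1.78e-06, standard error 0.29) for Itgam in ADSF and NDSF against ADSM, and -2.93 (adjusted p = 2.33e-06, standard error 0.27) and -2.88 (adjusted p = 2.46e-06, standard error 0.27) for Itgal. The dendritic cell chain Itgax (CD11c), Itgad and the mucosal T cell chain Itgae did not pass the filter, with at most 4.99, 11.04 and 1.88 in any fibroblast library and at most 5.13, 0 and 1.04 in any ADSM library. Itgad went the other way, with 6 reads in ADSF, 22 in NDSF and 0 in ADSM. Counted against a floor of 3 reads, it was at least 2.42-fold higher in ADSF and at least 7.45-fold higher in NDSF than in ADSM.

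Beta subunits were divided between the cell types as well. Itgb1 (chromosome 8, 128685654 to 128733579), the partner of most matrix-binding alpha chains, had 4485, 4737 and 4742 in ADSF, 3572, 3685 and 4678 in NDSF, and 457, 458 and 474 in ADSM and was the highest of the 41 genes per length in both fibroblast groups, at 1109.9 ± 35.0 per kb in ADSF and 949 ± 145 per kb in NDSF (SD, n = 3). Its log2 fold change was 3.33 (adjusted p = 7.73e-10, standard error 0.11) in ADSF and 3.09 (adjusted p = 1.30e-09, standard error 0.11) in NDSF against ADSM. Itgb5, a partner of Itgav in vitronectin receptors, had 1601, 1080.4 and 1352 in ADSF, 1896, 1946 and 1200.5 in NDSF, and 117, 159 and 125 in ADSM, higher, with log2 fold changes of 3.31 (adjusted p = 9.17e-08, standard error 0.21) in ADSF and 3.62 (adjusted p = 4.04e-08, standard error 0.21) in NDSF.

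Itgb2 (CD18, chromosome 10, 77530348 to 77565674), the obligate partner of the leukocyte alpha chains Itgal and Itgam, had 20.8, 74.7 and 50.5 in ADSF, 80.1, 83.9 and 25.3 in NDSF, and 589, 631 and 516 in ADSM. It was lower in fibroblasts than in ADSM, with log2 fold changes of -3.71 (adjusted p = 4.20e-05, standard error 0.49) in ADSF and -3.35 (adjusted p = 8.38e-05, standard error 0.49) in NDSF. Itgb3, another partner of Itgav and the partner of Itga2b, had 57.6, 62.2 and 102 in ADSF, 70.9, 53.9 and 58.2 in NDSF, and 0.854, 0 and 0 in ADSM, a ratio of 234 for ADSF over ADSM (41.5 to 9289). Itgb8, which pairs with Itgav, had no ADSM read and 7.94, 14.9 and 14.4 in ADSF against 19.3, 27.0 and 28.2 in NDSF, at least 12.9-fold higher in ADSF and at least 26.4-fold higher in NDSF than in ADSM. Low or absent were Itgb4 (at most 16.0), Itgb6 (at most 5.99), Itgb7 (at most 10.3) and Itgb2l, without a read in any library. Itgb6 and Itgb4 belong to epithelia, and Itgb7 pairs with Itga4 on gut-homing lymphocytes.

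The make-up of each family was compared as shares of the summed level per length in each library, which needs no scaling between libraries. Itgb1 made up 71.3 ± 3.71% of beta subunit RNA in ADSF, 63.0 ± 9.31% in NDSF and 31.2 ± 2.59% in ADSM (SD, n = 3), and Itgb2 made up 1.10 ± 0.637%, 1.47 ± 0.763% and 56.8 ± 2.31%. Itga4 made up 0.182 ± 0.0610% of alpha subunit RNA in ADSF, 0.465 ± 0.292% in NDSF and 73.9 ± 1.05% in ADSM. Itga5 made up 47.7 ± 8.17%, 26.0 ± 5.82% and 5.42 ± 0.736%. Macrophage alpha subunit RNA was thus mostly that of 1 chain. Itga1 took 7.28, 4.28 and 4.74% in ADSF against 19.7, 19.5 and 19.8% in NDSF. NDSF library 3 did not stand apart from the other NDSF libraries in this share. With 3 libraries a group, the exact permutation test cannot give a 2-sided p below 0.1, which was its value for each of these shares against ADSM, and for Itga5, Itga11 and Itga1 in ADSF against NDSF.

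**Figure D2:**
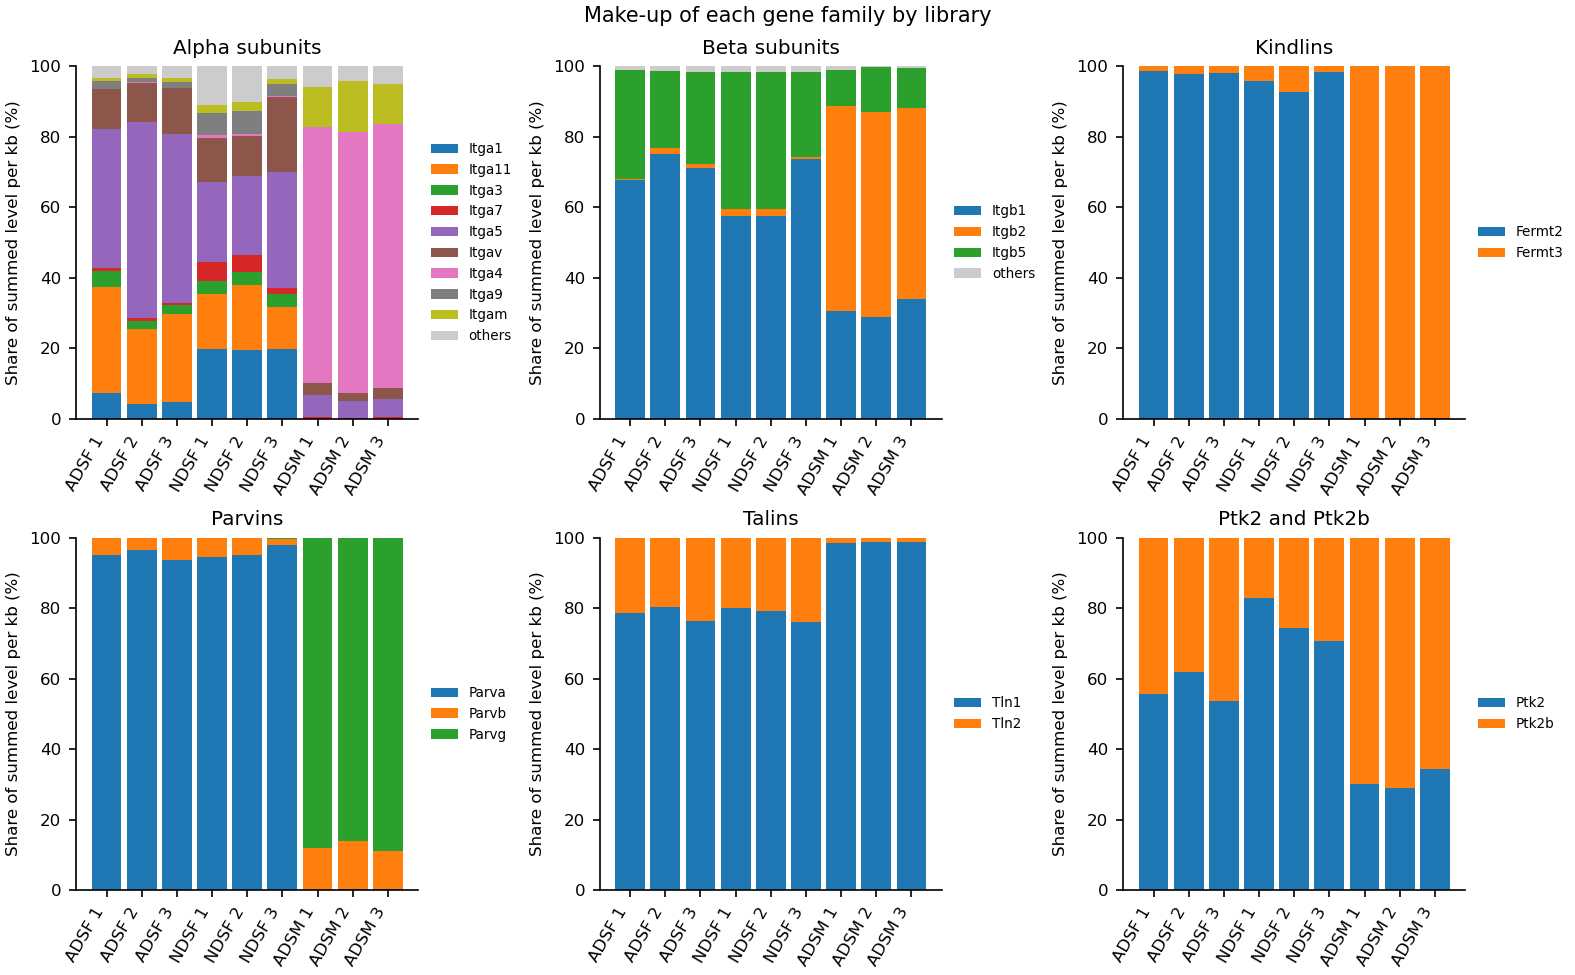
Share of the summed level per kb of exon, in percent, that each gene took of its family in each library, ADSF left, NDSF middle and ADSM right. Itga4 takes 72.7 to 74.8% of alpha subunit RNA in ADSM, Fermt3 at least 99.7% of kindlin RNA and Parvg at least 86.1% of parvin RNA, while Fermt2 and Parva fill these families in ADSF and NDSF.

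The kindlins divided by cell type. Fermt2 (chromosome 14, 45458792 to 45530065), kindlin-2 of adherent cells, had 839.7, 1021 and 1055 in ADSF, 526, 519 and 755 in NDSF, and 0, 3.11 and 1.87 in ADSM, and Fermt3 (chromosome 19, 6998958 to 7019469), kindlin-3 of blood cells and an activator of beta2 integrins, had 8.93, 17.4 and 15.6 in ADSF, 18.4, 33.0 and 10.3 in NDSF, and 856, 781 and 751 in ADSM. Log2 fold changes against ADSM were 8.73 (adjusted p = 9.62e-09, standard error 0.41) in ADSF and 8.02 (adjusted p = 1.81e-08, standard error 0.41) in NDSF for Fermt2, and -5.78 (adjusted p = 8.82e-08, standard error 0.36) and -5.35 (adjusted p = 1.56e-07, standard error 0.36) for Fermt3. Fermt3 accounted for 1.74 ± 0.395% of kindlin RNA in ADSF, 4.42 ± 2.85% in NDSF and 99.8 ± 0.160% in ADSM (SD, n = 3). Fermt1, the kindlin of epithelia, had no read in any library.

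Talins were a mixed pair. Tln1, the talin of all cells, had 2659, 2926 and 2660.1 in ADSF, 2281, 2357 and 2442 in NDSF, and 2951, 3005 and 2709 in ADSM, and the log2 fold change of ADSF against ADSM was -0.07 (adjusted p = 0.514, standard error 0.09), with a 95% interval of -0.28 to 0.14. Scaling by the upper quartile in place of TMM gave -0.23 with an adjusted p of 0.0419. NDSF was slightly lower than ADSM, with a log2 fold change of -0.29 (adjusted p = 0.0163, standard error 0.09), which missed the threshold without NDSF library 1 (adjusted p = 0.0516). Tln2, the second talin, had 1019, 1018 and 1169.6 in ADSF, 805, 884 and 1089 in NDSF, and 63.2, 50.9 and 54.2 in ADSM, higher, with log2 fold changes of 4.23 (adjusted p = 4.59e-10, standard error 0.13) in ADSF and 4.02 (adjusted p = 6.61e-10, standard error 0.13) in NDSF. Tln2 was 21.6 ± 2.00% of talin RNA in ADSF, 21.6 ± 2.08% in NDSF and 1.35 ± 0.158% in ADSM.

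Ilk (chromosome 7, 105736590 to 105742925), the scaffold of the ILK-PINCH-parvin complex, was found in all groups with 769, 843 and 781 in ADSF, 572, 674 and 790.3 in NDSF, and 299.8, 277 and 275 in ADSM, higher, with log2 fold changes of 1.49 (adjusted p = 7.64e-07, standard error 0.12) in ADSF and 1.24 (adjusted p = 3.09e-06, standard error 0.12) in NDSF. In GENCODE vM21, the exons of all its transcripts together share 2106 bases with Taf10 on the opposite strand. The deposited table gives Ilk only 1879 exon bases, so how many of the counted bases are shared is not known. The counting is not stated to use the strand, so reads on any shared bases cannot be told apart. The parvins divided in the same way. Parva (chromosome 7, 112427706 to 112591688), alpha-parvin, had 1134, 1246 and 1295 in ADSF, 811, 860.0 and 995 in NDSF, and 0, 4.15 and 3.74 in ADSM, and Parvg (chromosome 15, 84324720 to 84342978), the parvin of blood cells, had 0, 1.24 and 1.202 in ADSF, 0.920, 0.999 and 1.88 in NDSF, and 990.1, 791 and 868 in ADSM. Only 2 reads of Parvg were found in ADSF and 4 in NDSF, and ADSM exceeded ADSF by a ratio of 1175 (325 to 9711). Parva was higher, with log2 fold changes of 8.72 (adjusted p = 3.97e-08, standard error 0.49) in ADSF and 8.26 (adjusted p = 5.55e-08, standard error 0.49) in NDSF.

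Parvb, beta-parvin, lay between these extremes with 48.6, 37.3 and 70.9 in ADSF, 38.7, 35.0 and 16.0 in NDSF, and 178, 165 and 139 in ADSM, lower, with log2 fold changes of -1.64 (adjusted p = 9.04e-04, standard error 0.32) in ADSF and -2.48 (adjusted p = 3.73e-05, standard error 0.32) in NDSF. Of parvin RNA, Parva made up 95.1 ± 1.34% in ADSF, 95.8 ± 1.79% in NDSF and 0.176 ± 0.154% in ADSM, and Parvg 0.0967 ± 0.0840%, 0.212 ± 0.0692% and 87.7 ± 1.45%. Ilk differed less between the cell types than Parva and Parvg, and by a fold of similar size to that of Parvb in ADSF against ADSM, in the other direction.

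Promoters are shown for 6 genes, 4 that were higher in ADSM and 2 that were higher in fibroblasts, as examples of windows with a motif match. They were chosen after their values and matches were seen. For 27 of the 41 genes RefSeq (GRCm38.p6) had a start within 100 bases of the start in the deposited table, and the 250 bases before it were searched on both strands for GAGGAA, the core bound by the myeloid factor PU.1, for TGTGGT, a core bound by Runx factors, for the CArG box of serum response factor, and for the AP-1 site TGANTCA. The macrophage genes follow on the strand of the gene, read 5′ to 3′, with matches in capitals, where TTCCTC and ACCACA are the first 2 cores on the other strand.
Itga4: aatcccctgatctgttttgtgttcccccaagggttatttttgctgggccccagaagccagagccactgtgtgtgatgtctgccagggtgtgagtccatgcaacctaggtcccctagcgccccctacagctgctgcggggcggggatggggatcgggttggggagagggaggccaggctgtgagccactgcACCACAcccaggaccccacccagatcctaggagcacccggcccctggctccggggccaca
Itgam: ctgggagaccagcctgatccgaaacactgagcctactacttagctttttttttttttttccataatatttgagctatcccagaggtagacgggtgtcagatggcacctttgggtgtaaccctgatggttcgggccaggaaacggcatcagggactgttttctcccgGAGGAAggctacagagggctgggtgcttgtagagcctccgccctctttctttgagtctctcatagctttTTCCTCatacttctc
Fermt3: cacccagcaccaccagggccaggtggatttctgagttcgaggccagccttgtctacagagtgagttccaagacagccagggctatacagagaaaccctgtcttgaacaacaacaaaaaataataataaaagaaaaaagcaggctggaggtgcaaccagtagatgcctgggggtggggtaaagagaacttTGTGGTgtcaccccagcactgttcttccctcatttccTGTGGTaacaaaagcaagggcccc
Parvg: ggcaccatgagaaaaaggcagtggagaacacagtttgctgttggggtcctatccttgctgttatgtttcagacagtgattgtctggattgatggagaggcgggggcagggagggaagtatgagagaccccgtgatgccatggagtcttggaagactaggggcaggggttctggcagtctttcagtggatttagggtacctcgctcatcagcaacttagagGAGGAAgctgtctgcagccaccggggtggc
The fibroblast genes Fermt2 and Vcl, with the CArG box in capitals, read as follows.
Fermt2: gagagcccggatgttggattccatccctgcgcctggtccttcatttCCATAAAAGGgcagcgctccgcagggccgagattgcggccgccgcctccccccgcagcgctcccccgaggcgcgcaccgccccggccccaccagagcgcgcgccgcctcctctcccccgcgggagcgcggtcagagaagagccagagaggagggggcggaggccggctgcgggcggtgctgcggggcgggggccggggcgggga
Vcl: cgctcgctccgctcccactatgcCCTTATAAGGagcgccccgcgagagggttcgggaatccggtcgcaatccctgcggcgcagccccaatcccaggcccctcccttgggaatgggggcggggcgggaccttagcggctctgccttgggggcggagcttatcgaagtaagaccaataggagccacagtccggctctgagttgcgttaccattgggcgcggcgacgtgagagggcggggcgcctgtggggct

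The windows were chr2:79255176-79255425 (plus strand) for Itga4, chr7:128062390-128062639 (plus strand) for Itgam, chr19:7019470-7019719 (minus strand) for Fermt3, chr15:84324470-84324719 (plus strand) for Parvg, chr14:45530066-45530315 (minus strand) for Fermt2 and chr14:20929148-20929397 (plus strand) for Vcl. Of the 27 windows, 16 held a match to at least 1 of the 4 motifs, 9 of them at genes higher in ADSF than in ADSM and 4 at genes lower. Most of the 27 windows belonged to genes higher in ADSF, so these counts do not compare the directions. GAGGAA was present in 9 of the 27 windows, 5 of them at genes higher in ADSF than in ADSM (Itga11, Itga5, Itgav, Itga2b and Itgb1) and 2 at genes lower, and in 23.3% of 32851 RefSeq promoters of this length, and TGTGGT in 3 of 27 against 14.0%. A CArG box was present in 2 of 27, those of Fermt2 and Vcl, against 1.47% of promoters, and the AP-1 site in 2 of 27 against 6.75%. These matches describe letters only.

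The structural adaptors were fibroblast genes, with the exception of paxillin. Vcl (chromosome 14, 20929433 to 21033673), vinculin, had 2952, 3017 and 3397 in ADSF, 1569, 1699 and 2659 in NDSF, and 119, 127 and 121 in ADSM, and Zyx (chromosome 6, 42349828 to 42358395), zyxin, had 1670.5, 2245 and 2041 in ADSF, 676, 704 and 1288 in NDSF, and 122, 95.5 and 64.5 in ADSM. In both genes the 3 groups did not overlap, and NDSF library 3 lay nearest to ADSF. Log2 fold changes against ADSM were 4.66 (adjusted p = 1.33e-09, standard error 0.17) in ADSF and 3.97 (adjusted p = 4.49e-09, standard error 0.17) in NDSF for Vcl, and 4.42 (adjusted p = 8.00e-08, standard error 0.27) and 3.21 (adjusted p = 1.06e-06, standard error 0.27) for Zyx. Exons of all Vcl transcripts in GENCODE vM21 together share 2090 bases with Ap3m1 on the opposite strand. Pxn, paxillin, was lower in both fibroblast groups, with 179, 207 and 198 in ADSF, 225, 238 and 179 in NDSF, and 455, 394 and 434 in ADSM and log2 fold changes of -1.13 (adjusted p = 1.21e-05, standard error 0.13) in ADSF and -1.003 (adjusted p = 2.89e-05, standard error 0.13) in NDSF.

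The focal adhesion kinases differed from each other. Ptk2, which codes for FAK, had 248, 299 and 273 in ADSF, 224, 214 and 236 in NDSF, and 287, 262 and 310.3 in ADSM, and the log2 fold change of ADSF against ADSM was -0.07 (adjusted p = 0.599, standard error 0.11), with a 95% interval of -0.31 to 0.18. NDSF was lower than ADSM, with a log2 fold change of -0.35 (adjusted p = 0.0144, standard error 0.11), a call that was lost without NDSF library 2 (adjusted p = 0.0529) or ADSM library 3 (0.0686). Ptk2b (chromosome 14, 66153257 to 66281052), which codes for PYK2 of leukocytes and osteoclasts, had 159.8, 149 and 191 in ADSF, 37.7, 59.9 and 78.8 in NDSF, and 538, 517 and 477 in ADSM. The groups did not overlap, and ADSF lay between NDSF and ADSM. Ptk2b was lower than in ADSM, with log2 fold changes of -1.61 (adjusted p = 6.29e-05, standard error 0.22) in ADSF and -3.16 (adjusted p = 2.39e-07, standard error 0.22) in NDSF. Its share of the summed Ptk2 and Ptk2b level was 43.0 ± 4.27% in ADSF, 24.1 ± 6.17% in NDSF and 68.8 ± 2.88% in ADSM (SD, n = 3).

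**Figure D3:**
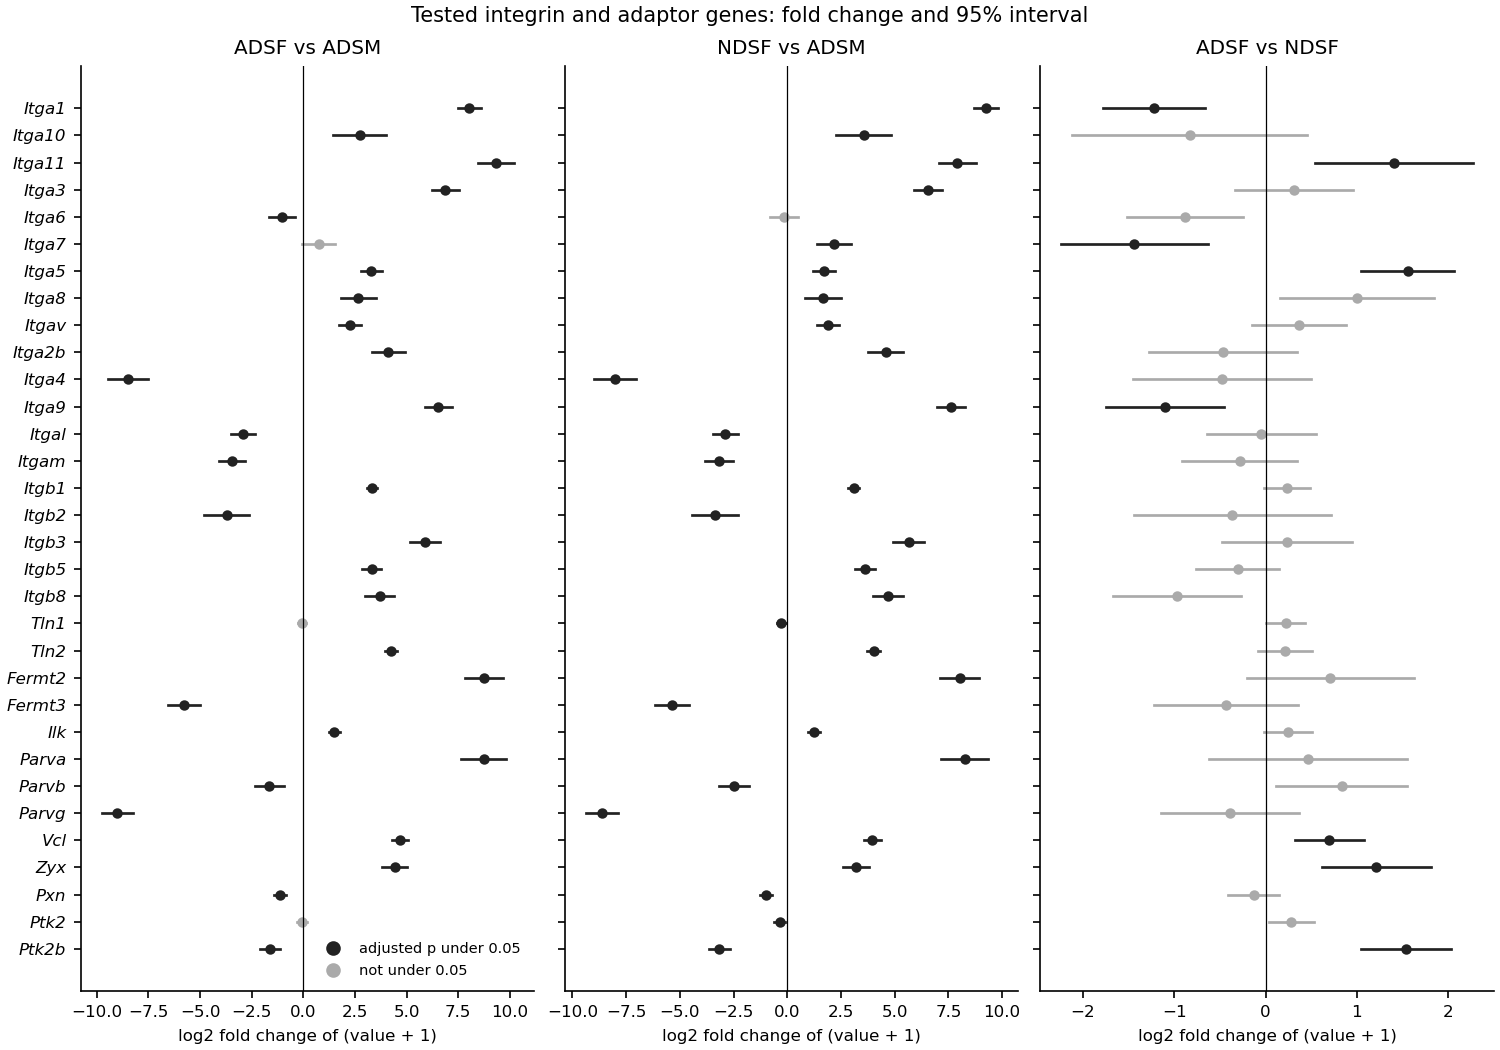
Log2 fold change of (value + 1) with its 95% interval for the 32 tested genes in ADSF against ADSM, NDSF against ADSM and ADSF against NDSF, dark where the adjusted p was under 0.05. In the first panel 19 genes lie to the right and 10 to the left of 0 in dark, and in the third panel, whose axis is narrower, 5 and 3.

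Between arthritic and normal fibroblasts, 25.0% of the 32 tested genes were called, against a background of 21.2% of all tested genes. Of the 8 genes called, Itga5, Ptk2b, Itga11, Zyx and Vcl were higher in ADSF, with log2 fold changes of 1.56 (adjusted p = 0.00199, standard error 0.23), 1.54 (adjusted p = 0.00189, standard error 0.22), 1.41 (adjusted p = 0.0302, standard error 0.39), 1.21 (adjusted p = 0.0122, standard error 0.27) and 0.70 (adjusted p = 0.0180, standard error 0.17). Itga1, Itga7 and Itga9 were lower in ADSF, with log2 fold changes of -1.22 (adjusted p = 0.00882, standard error 0.25), -1.43 (adjusted p = 0.0207, standard error 0.36) and -1.10 (adjusted p = 0.0249, standard error 0.29). The libraries of ADSF and NDSF did not overlap in any of the 8, which were picked by p-value. Over all tested genes, 38.1% did not overlap in this comparison.

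Itga5, Ptk2b and Itga1 kept their calls under every alternative, with adjusted p-values of at most 0.0187, 0.0146 and 0.0471. The other 5 calls were lost when various single libraries were left out, while log2 fold changes kept their direction at 1.29 to 1.55 for Itga11, 1.05 to 1.51 for Zyx, 0.55 to 0.93 for Vcl, -1.91 to -1.18 for Itga7 and -1.32 to -0.96 for Itga9. Without ADSF library 2 or 3 or NDSF library 1 or 2, calls over all genes numbered 756 to 1271, against 2518 with every library. All 8 calls were kept with edgeR, with DESeq2 and with the ADSF and NDSF libraries alone. In the limma fits, Itga11 missed the threshold without ADSF library 1, 2 or 3 and without NDSF library 1 or 2 (adjusted p up to 0.0962). Zyx missed the threshold without ADSF library 2 or NDSF library 1 or 2 (up to 0.0661), Vcl also without ADSF library 3 (up to 0.0890), Itga7 without ADSF library 2 or 3 or NDSF library 1 or 2 (up to 0.1002) and Itga9 without the same 4 (up to 0.118). With a pseudocount of 0.5 in place of 1, Itga11 and Itga9 missed it as well (0.0935 and 0.0697). Leaving out NDSF library 3 had the opposite effect. In that fit 16 of the 32 genes were called, 9 higher and 7 lower, while 4086 genes were called in all, against 2518 with it. The 8 additional genes were Itgav, Itgb1, Tln2 and Ilk, higher in ADSF, and Itga4, Itga6, Itga10 and Itgb5, lower.

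Fermt2 did not pass between ADSF and NDSF, with 839.7, 1021 and 1055 in ADSF against 526, 519 and 755 in NDSF and a log2 fold change of 0.71 (adjusted p = 0.239, standard error 0.41), although its libraries did not overlap. It passed with edgeR (adjusted p = 0.0288), DESeq2 (0.00503), a pseudocount of 4 (0.0359), the ADSF and NDSF libraries alone (0.0274) and without ADSM library 1 (0.0319). Parva, at a log2 fold change of 0.47 (adjusted p = 0.527, standard error 0.49), passed with DESeq2 (0.0107), the ADSF and NDSF libraries alone (0.0301) and without ADSM library 1 (0.0242). Both genes, and Itga11 as well, vary strongly between the ADSM libraries on the log scale, where ADSM library 1 had no read of any of them. Itga6 and Itgb8, at log2 fold changes of -0.88 (adjusted p = 0.0525, standard error 0.29) and -0.97 (adjusted p = 0.0518, standard error 0.32), lay just over the threshold. Itga6 passed with edgeR (0.0454), DESeq2 (0.0338), a pseudocount of 4 (0.0439) and without ADSF library 3 (0.04755) or NDSF library 3 (0.00337). Itgb8 passed with a pseudocount of 4 (0.0312) and with upper quartile scaling (0.0494).

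Markers of other cell types moved with some of these genes. Smooth muscle and pericyte markers, led by Acta2 and Tagln, summed to 18668, 26516 and 26372 in ADSF against 3482, 4349 and 13193 in NDSF. NDSF library 3 was thus nearest to ADSF for this list, as it was for Itga5, Vcl, Zyx and Ptk2b. For Itga11 and Itga1 it was the NDSF library farthest from ADSF. Acta2, the actin of contractile fibroblasts, had 12837, 17812 and 17943 in ADSF against 2242, 2918 and 8789 in NDSF, higher in ADSF by a log2 fold change of 2.05 (adjusted p = 0.0115, standard error 0.45). Endothelial markers summed to 51.7 to 60.5 in ADSF against 138 to 391 in NDSF, and the muscle markers given with Itga7 were likewise lower in ADSF. The 7 smooth muscle and pericyte markers did not move alike, with 3 higher and 1 lower in ADSF than in NDSF. Cspg4, a pericyte marker, had 533, 493 and 534 in ADSF against 417, 406 and 399.8 in NDSF, and Cnn1, calponin of smooth muscle, had 557, 819 and 769 in ADSF against 18.4, 26.0 and 451 in NDSF. Rgs5 and Myh11 had lower levels than these, at 0.993, 3.73 and 2.40 in ADSF against 18.4, 21.0 and 12.2 in NDSF for Rgs5 and 62.5, 63.5 and 93.8 in ADSF against 46.9, 46.9 and 54.4 in NDSF for Myh11. The part of these cells in the integrin differences was not tested.

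**Figure D4:**
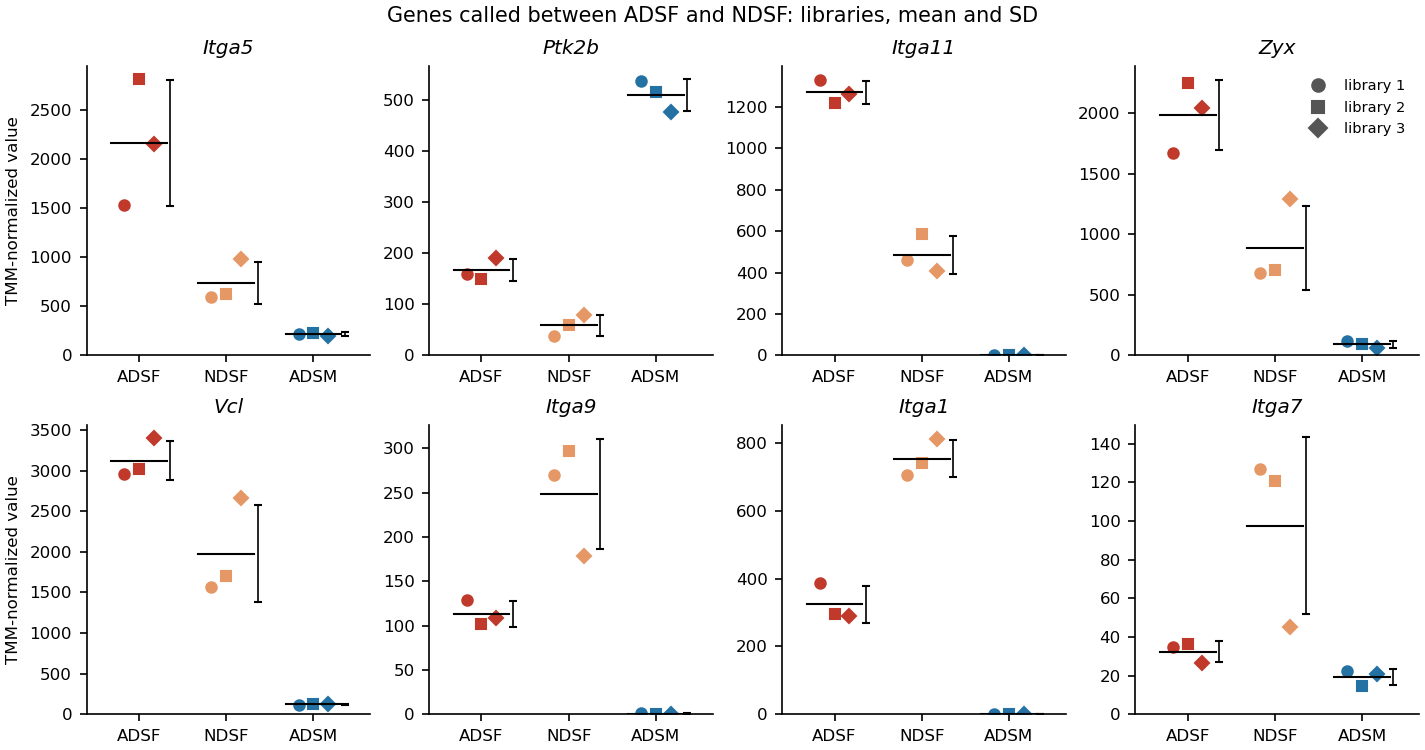
TMM-normalized values of the 8 genes called between ADSF and NDSF in each library, from 0 on a linear axis, with library numbers by symbol, the group mean as a line and the SD as a bar. ADSF and NDSF points do not overlap in any panel, and NDSF library 3 lies nearest to ADSF for Itga5, Ptk2b, Zyx, Vcl, Itga9 and Itga7.

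The leukocyte genes left in the fibroblast libraries were set beside macrophage markers, as percent of the ADSM mean. Itgal stood at 9.46 to 18.5% across the 6 fibroblast libraries, Itgam at 6.24 to 14.0% and Itgb2 at 3.60 to 14.5%, against 1.12 to 4.14% for Fermt3, 0.148 to 0.659% for Itga4 and at most 0.213% for Parvg. The 9 macrophage markers were spread widely too. Emr1, which codes for F4/80, stood at 9.67 to 29.0%, above the 3 integrin chains in most libraries, and Ptprc, which codes for CD45, at 1.88 to 9.76%. Csf1r, the receptor for CSF1, stood at 1.10 to 2.19%, Cd68 at 1.49 to 6.41%, Lyz2 at 2.34 to 6.18%, Fcer1g at 2.42 to 5.25% and Tyrobp at 0.820 to 2.81%. Cx3cr1 lay at 0.0698 to 0.833%, in the range of Itga4, and Mertk was higher in every fibroblast library than the ADSM mean of 2.13. Neither the leukocyte genes of the set nor the macrophage markers stood at 1 common percentage of ADSM. Per length, Itga4 was 0.140 to 0.227 times Itgam in ADSF, 0.133 to 0.346 times in NDSF and 5.15 to 6.60 times in ADSM. Itgam was 0.262 to 0.328 times Csf1r in ADSF, 0.295 to 0.346 times in NDSF and 0.0393 to 0.0770 times in ADSM. The part of remaining leukocytes in the fibroblast values was not tested.

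**Figure D5:**
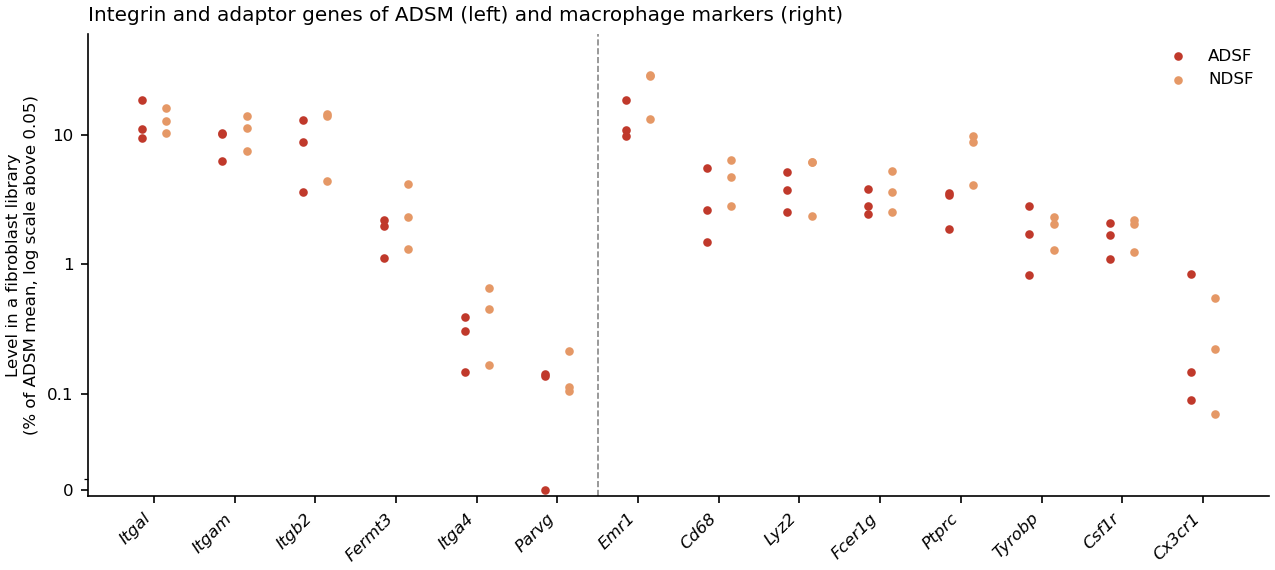
Level of 6 leukocyte genes of the set (left of the dashed line) and 8 macrophage markers, all but Mertk (right) in each ADSF and NDSF library, as percent of the ADSM mean, on an axis that is logarithmic above 0.05. Itgal, Itgam and Itgb2 lie at 3.60 to 18.5%, whereas Itga4 lies at 0.148 to 0.659% and Parvg at no more than 0.213%, and the markers run between Cx3cr1 at 0.0698 to 0.833% and Emr1 at 9.67 to 29.0%.

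A list of 32 other adhesion linkers, all tested, was mostly higher in fibroblasts. In ADSF against ADSM 25 were higher and 3 lower, which is 87.5% called against the background of 71.1% (41.0% higher), with a median log2 fold change of 3.04 against 0.14 over all tested genes. In NDSF against ADSM 26 were higher and 4 lower, 93.8% against 75.4% (43.3% higher), with a median of 2.14 against 0.18. Palld, the actin-bundling palladin, had no ADSM read and 508, 568 and 635 in ADSF against 458, 421 and 469 in NDSF. Tgfb1i1, which codes for HIC-5, a paxillin relative, had 643, 748 and 672 in ADSF, 378, 446 and 619 in NDSF, and 3.42, 2.08 and 1.87 in ADSM, and Lpxn, leupaxin, the paxillin relative of leukocytes, had 10.9, 8.71 and 8.41 in ADSF, 27.6, 23.0 and 17.8 in NDSF, and 374, 358 and 324 in ADSM. A paxillin relative was a fibroblast gene and the other a macrophage gene, with log2 fold changes in ADSF against ADSM of 7.66 for Tgfb1i1 and -5.10 for Lpxn (adjusted p = 2.05e-10 and 2.45e-09).

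Between ADSF and NDSF, 7 of the 32 linkers were higher and 3 lower, against the background of 21.2% called. Actn1, which codes for the actin crosslinker alpha-actinin-1, had 3806, 4570.5 and 4109.7 in ADSF against 1324, 1418 and 2720.0 in NDSF, higher in ADSF by a log2 fold change of 1.27 (adjusted p = 0.00531, standard error 0.23). NDSF library 3 was its highest NDSF library.

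Of 18 genes that switch integrins on or off, 16 were tested. In ADSF against ADSM 2 were higher and 10 lower, 75.0% of them against a background of 71.1% (41.0% higher and 30.1% lower). In NDSF against ADSM 3 were higher and 10 lower, 81.2% against 75.4% (43.3% higher and 32.0% lower). The share called was near the background in both. Most of these calls were lower, while over all tested genes higher calls were more frequent. Rasgrp3, an exchange factor that loads RAP1, had 51.6, 53.5 and 43.3 in ADSF, 31.3, 41.0 and 36.6 in NDSF, and 764, 784 and 659.9 in ADSM, and the kinase Lyn had 69.5, 57.3 and 72.1 in ADSF, 68.1, 67.9 and 92.9 in NDSF, and 409, 403 and 434 in ADSM. Both were macrophage genes, with log2 fold changes of -3.87 (adjusted p = 1.83e-09, standard error 0.15) and -2.64 (adjusted p = 5.14e-08, standard error 0.15) in ADSF against ADSM. Src ran the other way, with 236, 259 and 246 in ADSF, 162, 149 and 182 in NDSF, and 1.71, 0 and 2.80 in ADSM and a log2 fold change of 6.83 (adjusted p = 4.75e-08, standard error 0.39). Between ADSF and NDSF 4 were higher and 2 lower, 37.5% against 21.2%.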

How the data were processed

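RNA from 9 libraries of primary mouse cells, 3 per group, was sequenced as read pairs. Reads were aligned by the authors to mm10 with TopHat, and the labels name Cufflinks too, without versions. The authors deposited a table of 23420 genes whose signal is a gene's read count over the TMM factor of its library, and FPKM values for 6 libraries and 23351 genes, used as an alternative. The sources used here give neither the counting tool nor its use of strand, and 9 of the 41 genes share exon bases with a gene on the opposite strand. The deposited tables also hold q-values of the authors' own comparisons, which were not used. Each value was a whole multiple of 1 read within 0.001 in 100% of cases, which gave the reads. Since 1 read was worth 0.854 to 1.24, low values rest on few reads, and intervals and floors, at 95%, cover counting error only. Unused per-sample columns numbered 0.

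Samples were grouped by the labels. limma 3.58.1 in R 4.3.3, with a trend, was fitted to log2(value + 1) with 3 group means over the 11889 genes that reached 10 in 3 or more libraries, with Benjamini-Hochberg adjustment and a threshold of 0.05. The code was tested on simulated data. Alternatives were pseudocounts of 0.5 and 4, no filter, a filter of 30, edgeR 4.0.16 and DESeq2 1.42.0 on the recovered reads, upper quartile scaling, the libraries of the groups compared alone, a replicate block, leaving out each library, and the FPKM table. For family shares the FPKM table and leaving out libraries were chosen after seeing the data. Shares used the exon length in the table. Coordinates are those of the table, exon overlaps come from GENCODE vM21 of the same build, and promoters from RefSeq. The 41 genes and the other lists were chosen with earlier results of these data known. All genes past the filter could be named, and of each other list those ranked up to 4 by adjusted p within any comparison. Other members of marker lists, such as Lyz2 and those without reads, were named after their values were seen. Some genes of the linker list are not reported here by name.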

Additional observations from a re-analysis of the deposited data

How the results depend on the processing

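Among the 32 tested genes, 30 kept direction and side of the threshold under all alternatives that gave a value in ADSF against ADSM, 29 in NDSF against ADSM and 12 in ADSF against NDSF. Counts of called genes of the set stayed within 1.5 times the reported count under every alternative except leaving out a library. Leave-one-out gave 3 to 16 called genes of the set in ADSF against NDSF, with 3 without ADSF library 2, NDSF library 1 or NDSF library 2, 5 without ADSF library 3 and 16 without NDSF library 3, and 756 to 4086 called genes in all. The same ranges were 28 to 30 and 7473 to 8771 in ADSF against ADSM, and 29 to 31 and 8155 to 8915 in NDSF against ADSM. Directions turned for genes that were not called. Without 1 library, Itgal ranged between -0.32 and 0.14, Itgb2 between -0.92 and 0.14 and Itgb3 between -0.0174 and 0.39 in ADSF against NDSF, and Itga6 between -0.34 and 0.17 in NDSF against ADSM. The single values were 0.14 for Itgal and Itgb2 without ADSF library 1, 0.04 and 0.11 for Itgal without ADSF library 2 and NDSF library 2, and -0.0174 for Itgb3 without ADSF library 3.

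The labels do not say whether equal replicate numbers share an animal or day, and correlations with 3 libraries a group cannot decide it. Deviations of same-numbered libraries correlated at -0.14 to 0.18 over 9 pairs, and 1 pair was over 0.1. With a replicate block, 29, 31 and 8 genes of the set were called in the 3 comparisons, as without it, and 8361, 8889 and 2307 genes in all. Upper quartile scaling shifted the median of all genes by -0.15 in ADSF against ADSM and -0.14 in NDSF against ADSM. In the FPKM table, which holds ADSF and ADSM only, the family shares moved by less than 1 SD. Leaving out a library moved Fermt3 of kindlin RNA in NDSF by 1.5 times, to 2.94% without NDSF library 2 against 4.42% with it, and likewise the ADSM shares of Itga1, Itga11 and Parva, all under 1%. At this depth a value of 0 shows only that no read was found, and the 9 genes under the filter entered a test only where no filter was set. The cause of these dependences was not tested.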

Other observations

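Ligands of these integrins were measured in the same libraries. Of 27 matrix ligands, 22 were tested, and 20 were higher and 1 lower in ADSF than in ADSM, against 20 higher and 0 lower in NDSF than in ADSM. That is 95.5% and 90.9% called, with backgrounds of 71.1% and 75.4% of all tested genes. Fn1, fibronectin, the ligand of the Itga5 receptor, had 77025, 82004 and 125953 in ADSF, 52959.7, 55797 and 37349.9 in NDSF, and 64.9, 68.5 and 93.5 in ADSM, and was higher in ADSF than in NDSF by a log2 fold change of 0.95 (adjusted p = 0.0161, standard error 0.23) by limma. Thbs1, which codes for the matricellular ligand thrombospondin-1, had 76528, 70629.9 and 70824 in ADSF against 21907, 25349 and 39783 in NDSF, higher by a log2 fold change of 1.37 (adjusted p = 0.00267, standard error 0.22). Both differed without overlap, with 4 ligands higher and 2 lower in ADSF than in NDSF, 27.3% called against a background of 21.2%. Tgfb1, whose latent form is an RGD ligand of Itgav receptors, was lower in ADSF, with 72.5, 77.2 and 66.1 in ADSF against 237, 251 and 139.8 in NDSF and a log2 fold change of -1.48 (adjusted p = 0.00119, standard error 0.20).

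Counter-receptors for leukocyte integrins were divided. Vcam1, a ligand of the Itga4 receptor, had 476, 432 and 376 in ADSF, 548, 554 and 502 in NDSF, and 0.854, 0 and 0.935 in ADSM. The Itga4 chain was thus found mainly in ADSM and the ligand in fibroblasts, while Itga9, the related chain that binds VCAM1, was found in fibroblasts like the ligand. The log2 fold change of Vcam1 was 8.12 (adjusted p = 3.08e-10, standard error 0.24) in ADSF against ADSM by limma. Icam1, the ligand of the Itgal and Itgam receptors, had 46.7, 64.7 and 31.3 in ADSF, 174, 159 and 109.8 in NDSF, and 175, 194 and 138 in ADSM. It was lower in ADSF than in NDSF, with a log2 fold change of -1.65 (adjusted p = 0.00288, standard error 0.26) and lower than in ADSM, with a log2 fold change of -1.86 (adjusted p = 7.77e-05, standard error 0.26), and no ADSF library overlapped either group. Icam2 and Jam2 were lower in ADSF than in NDSF too, with log2 fold changes of -1.67 and -1.85 (adjusted p = 0.0176 and 0.00610). Icam2 rested on 2 reads in ADSF and 15 in NDSF, and was highest in ADSM, with 17.9, 19.7 and 22.4. Jam2 had 18.9, 11.2 and 13.2 in ADSF, 77.3, 61.9 and 31.9 in NDSF, and 46.1, 24.9 and 32.7 in ADSM. Endothelial markers summed to 51.7 to 60.5 in ADSF, 138 to 391 in NDSF and 1.04 to 3.42 in ADSM, and their part was not tested.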
